A study of Mus musculus with 19 samples.

Results

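The interaction between genotype and aortic banding asks whether pressure overload altered left ventricular RNA differently when a cardiac transgene was present. It was measured in 12 RNA-seq libraries of the series' 19 samples, chosen by their labels: 3 libraries in each of 4 groups. The interaction of a transcript is its log2 change with banding in JP2NT-OE hearts minus its log2 change with banding in control hearts. A positive value means that the change was higher in JP2NT-OE, which includes a smaller fall. A negative value means that it was lower, which includes a smaller rise.

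All animals were 12 weeks old when the left ventricle was taken. JP2NT-OE mice carried an HA-tagged transgene for JP2NT, a truncated N-terminal form of junctophilin 2, driven by the α-MHC promoter, a promoter used in heart muscle cells. Controls were littermates without it. The TAB groups of both genotypes were males that had transverse aortic banding at 9 weeks of age, 3 weeks before the heart was taken, and the baseline groups had no surgery and no stated sex. There was no sham operation, so load and surgery cannot be told apart in either genotype. Because the sex of the baseline groups is not stated, a difference in sex cannot be told apart from banding either. The replicates are numbered without being named as separate mice, and the p-values therefore measure the spread between these libraries. How many transgenic lines were used is not given in the sources used here.

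Junctophilin-2 ties the surface membrane of a heart muscle cell, at the transverse tubules, to the sarcoplasmic reticulum, and so keeps calcium entry close to calcium release. Calpain, a protease that calcium activates, cuts it in stressed hearts, and the N-terminal fragment can enter the nucleus. Pressure overload is known to switch heart muscle towards a fetal set of genes, to lower genes of fatty acid use and to raise genes of the extracellular matrix.

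The deposited tables identify features by Ensembl transcript ID alone, and 0 of these IDs matched the name tables used here. Genes, pathways and cell types are therefore not named, the level of Jph2 and the markers of heart muscle cells were not checked, and no sequence is shown. In tissue RNA, fewer cells of a type and less RNA per cell cannot be told apart. Results are for single transcripts, and a shift between 2 transcripts of 1 gene would appear as a change in both.

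Total estimated counts ran from 37662212 to 53097801 over the 12 libraries. Pairs of replicates differed by more than sampling noise, with a chi-square per degree of freedom from 13.5 to 28.9. Of 96626 transcripts listed, 43256 passed the filter on low counts and were tested. Abundances are given as CPM, the count scaled to the library's TMM-adjusted total.

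ENSMUST00000034172.7, a transcript of 2004 bases, was the single interaction that passed an adjusted p of 0.05, which is 0.00231% of the transcripts tested (edgeR quasi-likelihood test with Benjamini-Hochberg adjustment). In control hearts it stood at 65.7, 49.6 and 66.4 CPM at baseline and at 4.63, 4.15 and 2.82 CPM after TAB. In JP2NT-OE hearts it stood at 59.7, 45.8 and 51.2 CPM at baseline and at 33.1, 32.5 and 52.2 CPM after TAB. The 3 banded control libraries lay below all the others, while the banded JP2NT-OE libraries overlapped with their own baseline through replicate 3. Banded control hearts held 6.39% of their baseline mean and banded JP2NT-OE hearts 75.2% of theirs. The log2 change with banding was -3.97 in controls (SE 0.252, edgeR adjusted p = 0.000149) and -0.41 in JP2NT-OE (95% interval -0.89 to 0.07, edgeR adjusted p = 0.511). The interaction was 3.56 (SE 0.324, 95% interval 2.84 to 4.28, edgeR adjusted p = 0.0231).

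Most of this interaction lay in the banded hearts. The difference between genotypes was 3.34 on the log2 scale after TAB (SE 0.246, edgeR adjusted p = 0.00292) and -0.21 at baseline (SE 0.217, edgeR adjusted p = 1). In these fits 0.451% of all transcripts were called after TAB and 0.00694% at baseline, and banding called 8.6% in controls and 0.238% in JP2NT-OE. The 4 comparisons share libraries with the interaction and are given beside it for their values. On the TPM scale, which corrects for transcript length, the means were 34.1 ± 6.78 at control baseline, 2.70 ± 0.686 in control TAB, 29.4 ± 3.40 before and 24.5 ± 5.76 after TAB in JP2NT-OE hearts (SD, n = 3). The interaction without banded JP2NT-OE replicate 3, the highest of its group, was 3.30 (edgeR adjusted p = 0.00993).

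The call of ENSMUST00000034172.7 was lost in some fits with 1 library left out, although the size of its interaction moved little. Such a fit also holds less data, so a lost call does not mark the library left out as unusual. With each of the 12 libraries left out in turn, the log2 interaction ran from 3.30 to 3.71, and the edgeR adjusted p from 0.00993 to 0.130. The p stayed under 0.05 in 6 of the 12 fits. Leaving out replicate 1 or 3 of the control baseline gave 0.0600 and 0.121 (edgeR adjusted p). Leaving out replicate 1 or 2 of control TAB gave 0.0786 and 0.0522, and leaving out replicate 2 or 3 of the JP2NT-OE baseline gave 0.130 and 0.0586 (edgeR adjusted p).

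**Figure D1:**
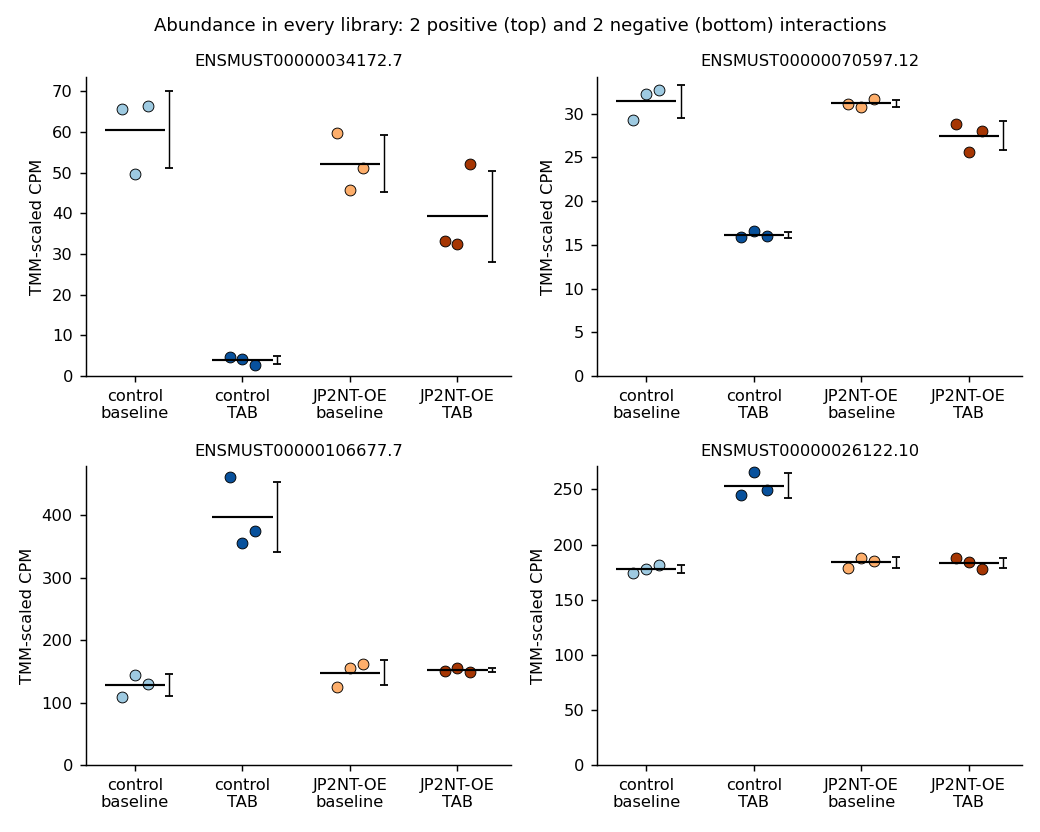
Abundance of the 4 transcripts described by ID, in TMM-scaled CPM on a linear axis from 0, for every library of the 4 groups. Points are libraries, horizontal lines are group means and bars beside them are 1 SD (n = 3). In each panel the 3 banded control libraries stand apart from the 9 others.

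Another 3 transcripts are given by ID as the next by p among abundant ones, here those whose log2 CPM averaged 1 or more over the libraries, so that 2 are shown in each direction. None of them passed an adjusted p of 0.05. ENSMUST00000070597.12, of 3027 bases, was the other positive one. In control hearts it stood at 29.2, 32.2 and 32.7 CPM at baseline and at 15.9, 16.6 and 16.02 CPM after TAB. In JP2NT-OE hearts it stood at 31.1, 30.8 and 31.6 CPM at baseline and at 28.8, 25.6 and 28.1 CPM after TAB. The groups did not overlap between baseline and TAB in either genotype, and banded control hearts lay below banded JP2NT-OE hearts. Its log2 change was -0.96 in controls (SE 0.0631, edgeR adjusted p = 0.000149) and -0.18 in JP2NT-OE (95% interval -0.32 to -0.04, edgeR adjusted p = 0.259), where the unadjusted interval excludes 0 and the adjusted p does not pass. The interaction was 0.78 (SE 0.0883, edgeR adjusted p = 0.0522).

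ENSMUST00000106677.7, of 3513 bases, had the smallest p of the negative interactions among abundant transcripts. In control hearts it stood at 110, 144 and 130 CPM at baseline and at 460, 355 and 375 CPM after TAB. In JP2NT-OE hearts it stood at 125, 156 and 163 CPM at baseline and at 151, 155 and 150 CPM after TAB. Banded control hearts held 3.10 times their baseline mean and banded JP2NT-OE hearts 1.03 times theirs. The log2 change was 1.63 in controls (SE 0.132, edgeR adjusted p = 0.000196) and 0.04 in JP2NT-OE (95% interval -0.25 to 0.33, edgeR adjusted p = 0.964). The interaction was -1.59 (SE 0.184, edgeR adjusted p = 0.0522), and the genotypes differed by -1.38 after TAB (edgeR adjusted p = 0.00569) and by 0.21 at baseline (edgeR adjusted p = 1).

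ENSMUST00000026122.10, of 2861 bases, showed a smaller difference with little spread between libraries. It stood at 174, 178 and 181 CPM in control baseline and at 245, 266 and 249 CPM in control TAB hearts. In JP2NT-OE it stood at 179, 188 and 185 CPM at baseline and at 188, 184 and 178 CPM after TAB. The 9 libraries outside the banded control group thus lay between 174 and 188 CPM. The log2 change was 0.51 in controls (SE 0.0455, edgeR adjusted p = 0.000292) and -0.01 in JP2NT-OE (95% interval -0.11 to 0.09, edgeR adjusted p = 0.986). The interaction was -0.52 (SE 0.0642, edgeR adjusted p = 0.0656). Within JP2NT-OE neither ENSMUST00000106677.7 nor ENSMUST00000026122.10 differed with banding beyond the spread, with intervals that allow log2 changes up to 0.33 and 0.11 in size.

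**Figure D2:**
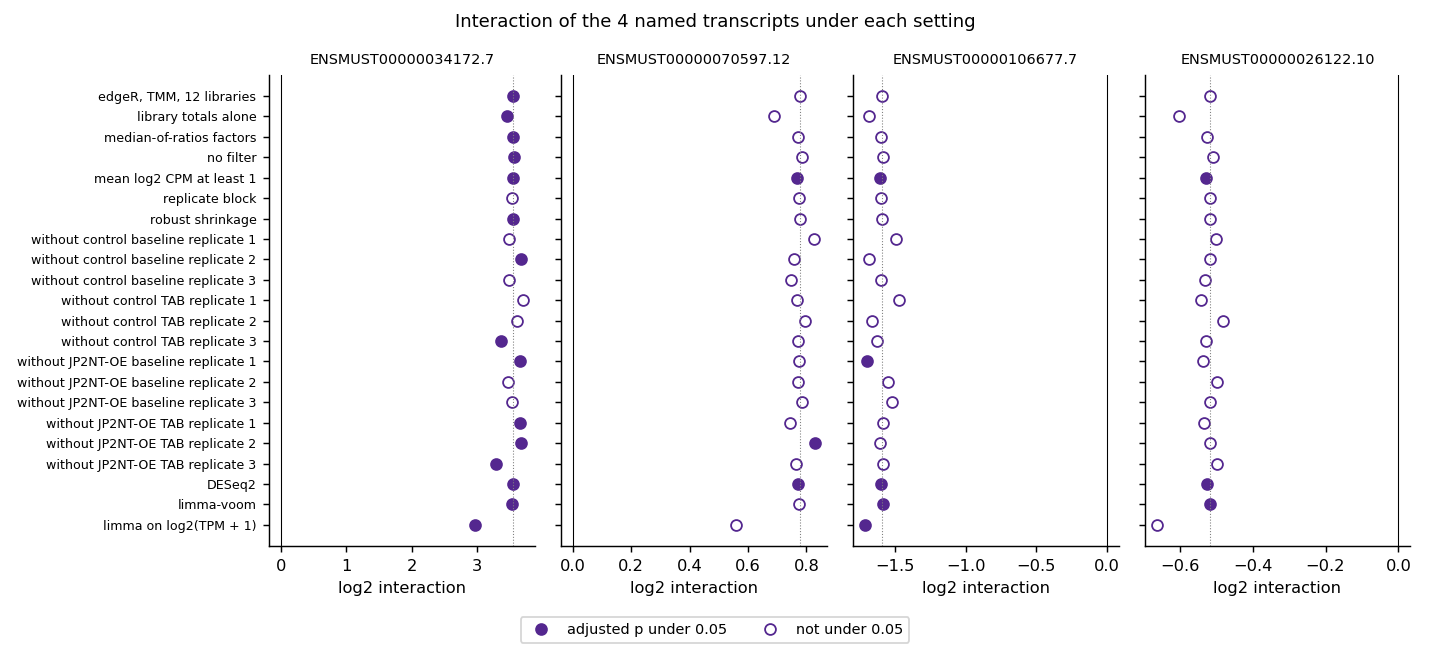
Log2 interaction (horizontal axis) of the 4 transcripts under each setting (rows), with filled points where the adjusted p was under 0.05 and open points elsewhere. The dotted line is the value from edgeR with TMM factors and all 12 libraries. The sizes move little, from 2.98 to 3.71 for ENSMUST00000034172.7, while the side of the threshold changes between settings.

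Behind the single call stood a larger number of interactions close to the threshold. An adjusted p under 0.1 was reached by 35 transcripts (0.0809% of those tested), 17 positive (0.0393%) and 18 negative (0.0416%). Of these, 28 were abundant. An unadjusted p under 0.05 was reached by 3741 transcripts (8.65%), 1886 positive (4.36%) and 1855 negative (4.29%). When the fit was limited to the 19234 abundant transcripts, the adjusted p was under 0.05 for 24, with 13 positive and 11 negative. All 4 transcripts named above were among them (edgeR adjusted p = 0.00962, 0.0235, 0.0244 and 0.0244). All 24 were also called by DESeq2, which called 714 of 43256 with the wider filter and left 15173 transcripts without an adjusted p. DESeq2 used the same libraries and called many more, so that overlap is no independent support.

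For the transcripts called in the limited fit, effects are given here from the fit of all transcripts tested. The 13 positive interactions had banding effects from -3.97 to -0.27 in control hearts, with a median of -0.96. In JP2NT-OE hearts their banding effects ran from -0.46 to 0.31, with a median of -0.29. The 11 negative interactions had banding effects from 0.51 to 1.63 in controls, with a median of 0.95, and from -0.47 to 0.32 in JP2NT-OE, with a median of 0.10. These transcripts were chosen by the interaction itself, so the medians describe them and are no test. At baseline, the log2 difference between genotypes had a median of -0.06 over the 13 and of 0.21 over the 11. After TAB it had medians of 0.64 and -0.61.

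The 12 abundant transcripts with the smallest p in each direction were also described library by library. In all 24 of them the banded libraries of the genotypes did not overlap, against 16.7% of all transcripts. Control libraries before and after TAB were also without overlap in all 24, against 28.3% of all transcripts. The JP2NT-OE libraries were apart between baseline and TAB for 11 of the 12 positive and 6 of the 12 negative ones (18.6% of all transcripts). Baseline libraries of the genotypes were apart for 0 of the 12 positive and 6 of the 12 negative ones (9.95% of all transcripts). The shares are over all transcripts tested, while the lists hold abundant ones alone, for which such shares are not given here. The interaction that chose these transcripts contains each of these differences, so the counts are a description.

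Among the 12 negative ones, 3 had JP2NT-OE means that were lower after TAB where the control means were higher. One of them, ENSMUST00000026122.10 above, had a JP2NT-OE difference close to 0. The seventh by p, of 1952 bases, had a mean of 94.1 CPM at control baseline and 143 CPM in control TAB hearts. In JP2NT-OE it had 148 CPM at baseline and 107 CPM after TAB, without overlap. Its banding effects were 0.61 in controls (edgeR adjusted p = 0.00837) and -0.47 in JP2NT-OE (edgeR adjusted p = 0.108). The tenth, of 3444 bases, had 13.1 and 18.8 CPM in control hearts and 15.6 and 11.6 CPM in JP2NT-OE hearts, with banding effects of 0.52 (edgeR adjusted p = 0.0127) and -0.42 (edgeR adjusted p = 0.121). In the seventh and the tenth the unbanded JP2NT-OE hearts lay above the unbanded control hearts in every library.

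In the third and the eighth of the negative list the JP2NT-OE means after TAB lay close to baseline. The third, at 11852 bases the longest of the 24, stood between 14.8 and 16.2 CPM at control baseline and between 30.5 and 38.6 CPM in control TAB hearts. In JP2NT-OE it stood between 19.5 and 21.2 CPM at baseline and between 20.7 and 22.4 CPM after TAB. The eighth, of 3788 bases, had group means of 42.2 and 115 CPM in controls and 48.5 and 51.9 CPM in JP2NT-OE. The twelfth was the largest in size, at -7.59, and its size is not determined because 1 or more control baseline libraries were at 0 CPM and none exceeded 0.244 CPM. That transcript was at 40.5 to 46.8 CPM in control TAB, and at 1.98 to 18.2 CPM before and 24.7 to 33.5 CPM after TAB in JP2NT-OE hearts. Its JP2NT-OE mean was 10.7 CPM at baseline and 28.2 CPM after TAB, and so was not close to baseline. After TAB the genotypes differed in it by -0.66 on the log2 scale (edgeR adjusted p = 0.822).

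Both lists were limited beforehand to transcripts that were abundant as defined above. The median of the mean log2 CPM was 5.21 over the 12 positive and 5.85 over the 12 negative ones. The highest value was 9.46 among the positive and 7.69 among the negative ones. The 3 positive ones with the highest mean log2 CPM are given here. The third positive transcript by p, of 3893 bases, had 544 CPM at control baseline and 339 CPM in control TAB hearts, and 530 and 490 CPM in JP2NT-OE hearts. The seventh, of 2426 bases, had 859 and 454 CPM in controls and 825 and 670 CPM in JP2NT-OE, with banding effects of -0.92 and -0.30. The eleventh, of 3833 bases, had 347 and 206 CPM in controls and 352 and 287 CPM in JP2NT-OE. In these 3 transcripts every banded JP2NT-OE library lay between the banded control libraries and its own baseline group. Their interactions were 0.57, 0.62 and 0.45 (edgeR adjusted p = 0.0656, 0.0940 and 0.0976).

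**Figure D3:**
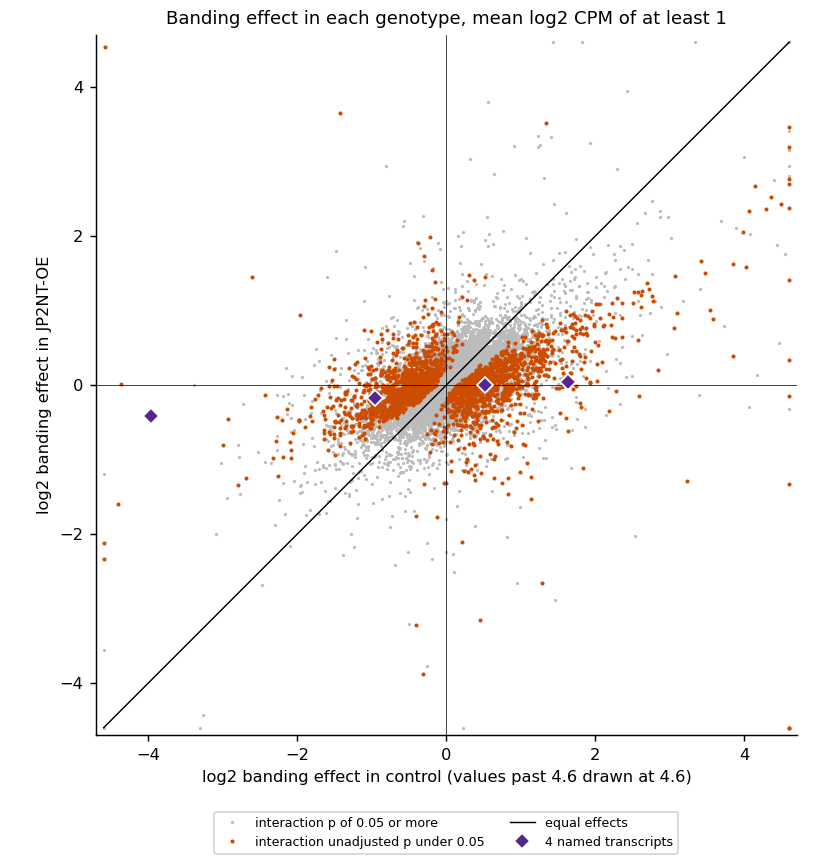
Log2 banding effect in control (horizontal) against JP2NT-OE hearts (vertical) for the 19234 transcripts with a mean log2 CPM of at least 1. The diagonal marks equal effects, orange points have an interaction at an unadjusted p under 0.05, and diamonds are the 4 transcripts described by ID, all near 0 on the vertical axis.

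The form of the interactions was described for the 2514 abundant transcripts with an unadjusted p under 0.05. The 2 banding effects share no library with each other, but both enter the interaction, so the following is a description. The control effect was larger in size than the JP2NT-OE effect in 86.0% of the 2514, compared with 65.3% of all 19234 transcripts of that abundance. Among the 1334 positive ones banding effects had a median of -0.47 in controls and of -0.04 in JP2NT-OE. Among the 1180 negative ones the medians were 0.57 and 0.02.

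Banding effects at an unadjusted p under 0.05 stood in control hearts alone for 1470 of the 2514, in both genotypes for 624, in JP2NT-OE alone for 251 and in neither for 169. These are 58.5%, 24.8%, 9.98% and 6.72% of the 2514. Over all 19234 abundant transcripts the same shares were 22.4%, 12.8%, 6.26% and 58.6%, so an effect in controls alone was the more frequent single-genotype form there too. Of the 624 with an effect in both genotypes, 253 were positive in both and 322 were negative in both. Among these same-direction effects, 572 were larger in controls and 3 were larger in JP2NT-OE (99.5% in controls). Over all abundant transcripts with same-direction effects in both genotypes, 1969 were larger in controls and 435 in JP2NT-OE (81.9% in controls). Opposite directions were found for the rest, with 24 up in controls and down in JP2NT-OE and 25 the reverse. A p under 0.05 in one genotype and not in the other is no test of their difference, and it is the interaction p that selected the 2514.

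The 4 groups could also be asked in turn, without a model, in how many transcripts all 3 libraries of a group lay above or below the 9 libraries of the other groups. Banded control hearts stood apart in 3317 transcripts (7.67% of those tested), 1609 above and 1708 below. Control baseline hearts stood apart in 964 (2.23%). JP2NT-OE hearts stood apart in 584 at baseline (1.35%) and in 543 after TAB (1.26%), of which 319 were above and 224 below. With all 12 libraries the banded control group held the largest number and the banded JP2NT-OE group the smallest, also with library totals alone (3805 and 501) and on the TPM scale (5280 and 421). No test was made of these counts.

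Of the 19234 abundant transcripts, 2504 had banded control hearts apart and 297 had banded JP2NT-OE hearts apart. Where banded control hearts were above all others (1082 transcripts), banding effects had a median of 0.61 in controls and of 0.18 in JP2NT-OE. Where they were below (1422 transcripts), the medians were -0.46 and -0.14. Where banded JP2NT-OE hearts were above all others (172 transcripts), the medians were 0.04 in controls and 0.35 in JP2NT-OE, and where they were below (125 transcripts), they were -0.05 and -0.33. Each set was chosen by 1 banded group standing apart in these same libraries, which favours a larger banding effect in that genotype. The medians are therefore a description and no test.

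**Figure D4:**
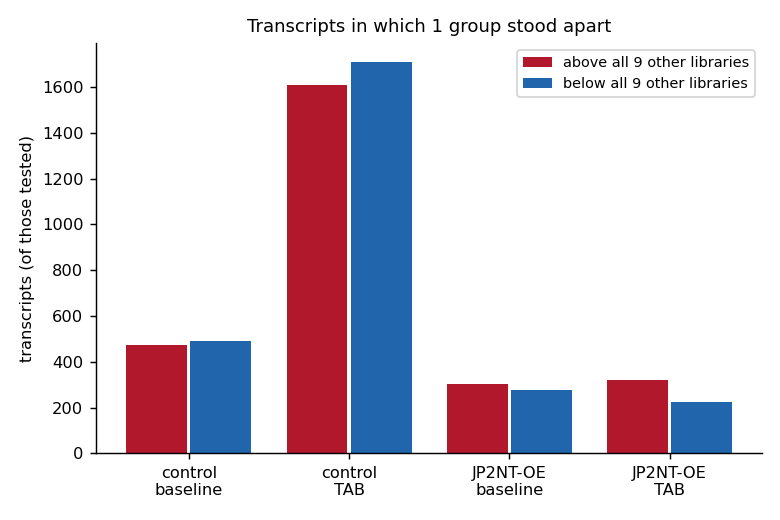
Number of transcripts (vertical axis, from 0) in which the 3 libraries of 1 group all lay above (red) or all below (blue) the 9 libraries of the other groups, in TMM-scaled CPM. Banded control hearts reach 1609 and 1708, and no other group exceeds 492 in either direction.

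The precision of an interaction is lower than that of a single banding effect, since 4 group means enter it. Its median SE over all tested transcripts was 0.479, compared with 0.339 for the banding effect in controls. By abundance it was 0.985 in the least abundant tertile of the transcripts, 0.467 in the middle tertile and 0.173 in the most abundant tertile. Interactions at an unadjusted p under 0.05 made up 4.77%, 6.42% and 14.8% of these tertiles. Of the 35 transcripts with an adjusted p under 0.1, 27 were in the most abundant tertile. A larger share of small p-values among abundant transcripts therefore goes with smaller errors, and does not show that abundant transcripts differed more often. A log2 interaction of at least 1 in size was fitted for 5062 of the 14418 least abundant transcripts and for 383 of the 14419 most abundant ones.

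By length, the shares over all tested transcripts were 6.17% in the shortest, 9.68% in the middle and 10.1% in the longest tertile, with median SEs of 0.628, 0.430 and 0.356. Among abundant transcripts alone, 12.5% of the shortest tertile (up to 1220 bases), 14.4% of the middle tertile and 12.3% of the longest tertile (from 2978 bases) had an interaction at an unadjusted p under 0.05. The median interactions were 0.03, 0.01 and 0.02. These shares were not tested against each other.

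**Figure D5:**
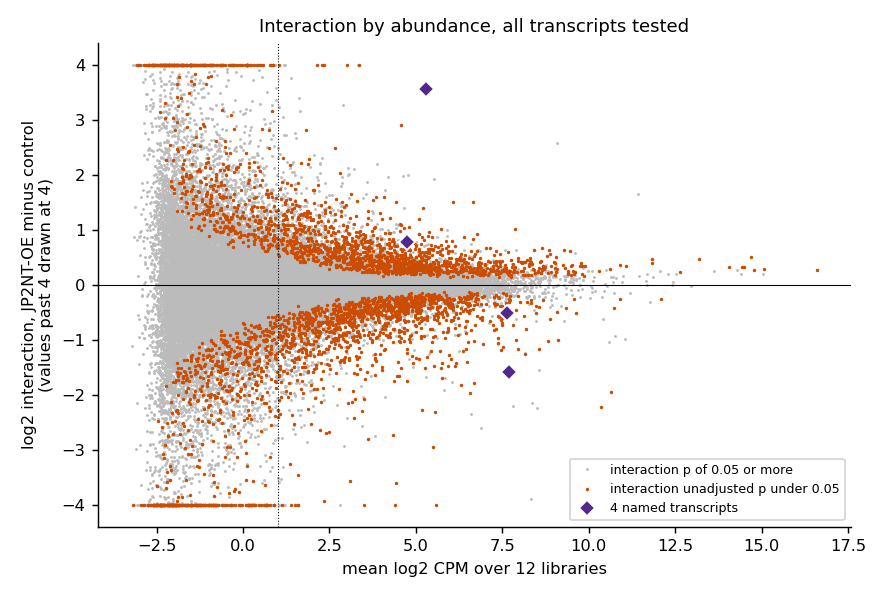
Log2 interaction (vertical, values past 4 in size drawn at 4) against mean log2 CPM over 12 libraries (horizontal) for the 43256 transcripts tested, with an unadjusted p under 0.05 in orange. The scatter narrows to the right, where the median SE of the most abundant tertile is 0.173, and the dotted line marks the mean log2 CPM of 1.

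The balance of positive and negative interactions differed between ways of measuring abundance. With TMM factors the median interaction was 0.01, and 50.4% of those at an unadjusted p under 0.05 were positive. With median-of-ratios factors 48.9% were positive. With library totals alone the median was -0.08 and 29.3% were positive. With limma on log2(TPM + 1), where the unit and the test differ as well as the scaling, the median was -0.07 and 18.3% were positive. Directions are therefore relative to the typical transcript. The 4 transcripts given by ID kept the direction of their interaction under all 21 settings tried.

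The 20 most abundant transcripts, from 4288 to 99272 CPM on average, had interactions of small size. They ran from -0.25 to 0.50 with a median of 0.24, 17 of the 20 were positive, and 10 had an unadjusted p under 0.05. Over all transcripts tested 50.6% of the interactions were above 0 and 8.65% had an unadjusted p under 0.05, and in the most abundant tertile 14.8% did. None of the 20 passed after adjustment (edgeR). With banding, the median change of these 20 was -0.42 in controls and -0.21 in JP2NT-OE. With library totals alone the median interaction of the 20 was 0.15, against -0.08 for all transcripts tested, and with limma on log2(TPM + 1) it was 0.088, against -0.07.

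Their share of all counts was measured in each library without scaling. It was 42.5%, 43.0% and 40.5% at control baseline and 34.8%, 33.9% and 34.8% in control TAB hearts. In JP2NT-OE hearts it was 42.2%, 41.5% and 40.2% before and 37.9%, 37.6% and 39.5% after TAB. The baseline libraries of the genotypes overlapped, and the banded ones did not. The TAB mean minus the baseline mean was -7.49 percentage points in controls and -2.97 in JP2NT-OE, which gave an interaction of 4.52 percentage points. Exchanging genotype labels separately among unbanded and among banded libraries gave p = 0.025 over 400 assignments, where the smallest possible p is 0.005 (exact permutation test, two-sided). Over the 3 library measures tested this way the Benjamini-Hochberg adjusted value was 0.075, which does not pass (exact permutation test).

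The other 2 library measures also changed less with TAB in JP2NT-OE than in controls, and did not pass. They come from the same counts as the share above, so the measures are not independent of each other. Transcripts at 1 TPM or more numbered 22386 ± 723 at control baseline and 24980 ± 505 in control TAB hearts, and 22361 ± 677 before and 23676 ± 562 after TAB in JP2NT-OE hearts (SD, n = 3). The difference with TAB was 2595 in controls and 1315 in JP2NT-OE. Its interaction of -1280 had p = 0.15 and adjusted p = 0.15 (exact permutation test, two-sided). The longest tertile of the transcripts, from 2978 bases, took 31.2% ± 0.933 and 34.4% ± 0.406 of the counts in control baseline and control TAB hearts, and 31.4% ± 0.887 and 32.5% ± 0.505 in JP2NT-OE (SD, n = 3). The difference between the changes was -2.20 percentage points (exact two-sided permutation p = 0.055, adjusted p = 0.0825).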

How the data were processed

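Per the labels' protocols, left ventricular RNA was made into libraries with a stranded mRNA kit. Software listed per the submitters' processing notes was kallisto 0.42.5, FastQC 0.11.3 and cutadapt 1.8.1, besides MACS 1.4.2 and Bowtie2 2.2.5. They name the build mm10. Which transcript annotation release was used is not given in the sources used here, per the labels and headers read. The deposited tables give an estimated count per transcript, which need not be whole because reads shared by transcripts were divided by the authors' software, and a TPM value made by the authors. The 7 chromatin samples were not analysed here.

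Estimated counts were rounded to whole numbers. The main analysis used edgeR 4.0.16 (R 4.3.3) with filterByExpr by group, TMM factors, 1 mean per group over 12 libraries (8 residual degrees of freedom), and the quasi-likelihood test. The method was tested on simulated data. Alternatives used DESeq2 1.42.0, limma 3.58.1, other scalings and filters, a replicate block and each library left out. The mean log2 CPM used a prior count of 2.

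Because 0 IDs matched a name table, 27 gene lists, 18 marker lists, gene sums, promoter motifs and the check of Jph2 were not run. By rule, the 2 transcripts with the smallest interaction p in each direction at a mean log2 CPM of at least 1 are printed by ID. The 12 in each direction are described without ID, and those singled out among them were chosen after their values were seen. Members and lists were chosen with earlier results of these data known. The counts of groups standing apart, the other 2 library measures, the threshold of 0.1 and the forms of interaction were added after seeing the data.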

Additional observations from a re-analysis of the deposited data

Results flagged for a closer look

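The response to banding of ENSMUST00000034172.7 differed between the genotypes by the test of the difference itself. The interaction, JP2NT-OE minus control, was 3.56 on the log2 scale (edgeR adjusted p = 0.0231, with a range from 1.37e-22 to 0.158 over 21 alternatives). No group has more than 3 libraries, so no search for single outlying libraries was made.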

How the results depend on the processing

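The number of called interactions was 24 with transcripts of at least 1 on the mean log2 CPM scale, 714 with DESeq2, 4 with limma-voom, 10 with limma on log2(TPM + 1) and 35 at an adjusted p under 0.1 (0 to 993 over the other settings). It was 1 with library totals, median-of-ratios factors, no filter and robust shrinkage, and 0 to 8 with 1 library left out. With the replicate number as a block it was 0 (edgeR, 3448 at an unadjusted p under 0.05), and ENSMUST00000034172.7 had a log2 interaction of 3.54 (adjusted p = 0.158). Deviations of same-numbered libraries correlated between -0.0908 and 0.0923, and those of differently numbered ones between -0.120 and 0.0989. The labels do not say whether the numbers pair libraries, and pairing was not tested. Fewer transcripts were tested in the fit that called 24, and DESeq2 left 15173 transcripts without an adjusted p. The cause of the other differences was not tested. Of the 714, 701 had an edgeR unadjusted p under 0.05 and all 714 had the same sign there. Positive interactions at an unadjusted p under 0.05 numbered 1131 with library totals, 1246 with the abundant transcripts and 907 with log2(TPM + 1), where negative ones numbered 4051.

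With 1 library left out, counts of groups standing apart ran from 3469 to 5509 for control TAB and 1061 to 3354 for control baseline. They ran from 660 to 1972 for JP2NT-OE baseline and 635 to 1912 for JP2NT-OE TAB. Standing apart is easier then, since the group or the others hold 1 library fewer. The banded control count was 5280 in TPM. The interaction of the longest tertile's share ran from -2.70 to -1.70 percentage points, with exact permutation p under 0.05 in 2 of 12 fits, and was -1.06 for the 10% longest transcripts (exact permutation p = 0.105). That of the 20 most abundant ran from 3.94 to 5.27 (p from 0.01 to 0.045, exact permutation). The interaction of transcripts at 1 TPM or more ran from -1587 to -882, and was -775 at a minimum of 5 TPM (exact permutation p = 0.09). Values near 0 changed sign: the JP2NT-OE banding effect of ENSMUST00000026122.10 (0.0896 with library totals, 0.152 with log2(TPM + 1), -0.0259 to 0.0138 with 1 library left out), that of ENSMUST00000106677.7 (-0.0670 to 0.119 with 1 library left out), and the baseline difference of ENSMUST00000070597.12 (0.000864 with log2(TPM + 1), -0.0592 to 0.0194 with 1 library left out). Gene sums were not run. Depth limits the least abundant tertile, whose median SE was 0.985.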
